A study of Arabidopsis thaliana with 9 samples.

Results

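The genes followed here are 10 transcription factor genes of Arabidopsis thaliana that leaf cells switch on within minutes of touch, wounding, cold or contact with a microbe. They are the ethylene response factor genes ERF5, ERF6, ERF104, ERF105 and ERF11, the zinc finger genes ZAT10 and ZAT12, and the WRKY genes WRKY18, WRKY33 and WRKY40. They were picked by locus identifier, with earlier results of these data known, and make up 10 of the 27655 genes of the expression table. In leaves of the hyp/hyp mutant, ZAT10 averaged 1.93 times and ERF11 3.12 times the wild-type level. Those 2 of the 9 genes tested passed the test, against 2.36% of all genes tested that passed it in the same direction. Neither call was firm: in some fits with a single library left out, none of the 9 passed. Each call was also lost under some other setting of the processing. In the hyp/c-1 mutant, none of the genes tested differed detectably from wild type. All 9 measurable genes averaged lower in hyp/c-1 than in hyp/hyp, but none of those differences passed correction over all genes. Among the 17683 genes tested, 10703 differed in the same direction. Much of the variation lay between single libraries of the same genotype.

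The RNA came from leaves of 3-week-old plants grown under days of 16 h light and nights of 8 h at 22 °C. WT was Col. The hyp/hyp plants were atxr5;atxr5;atxr6hyp;atxr6hyp, with both copies of ATXR6 of the atxr6hyp allele. The hyp/c-1 plants were atxr5;atxr5;atxr6hyp;atxr6c-1, with 1 copy of each of 2 ATXR6 alleles. Both mutants were thus homozygous for atxr5 and shared at least 1 atxr6hyp copy, and WT carried none of these alleles. Each genotype had 3 libraries. The labels do not say whether the libraries of a genotype came from separate plants, pools or growth rounds, so p-values measure only the spread between these libraries, which may be technical. ATXR5 and ATXR6 encode enzymes that add a single methyl group to lysine 27 of histone H3. The study asked what might lie behind developmental defects that hyp/c-1 plants have beyond those of hyp/hyp plants.

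Values are TPM, a read level scaled for gene length and library total. Levels were scaled by the whole gene span here, introns included. Whether reads in introns were counted is not stated. The WRKY genes, which have introns, may thus read low per length against the ERF and ZAT genes, which each have 1 exon. The 9 libraries held 21289647 to 38766556 reads in genes. WT libraries averaged 4.28 ± 0.0811 TPM of ATXR5, against 1.83 ± 0.297 TPM for hyp/hyp and 1.64 ± 0.0885 TPM for hyp/c-1 (SD, n = 3). ATXR6 averaged 1.33 ± 0.104 TPM in WT, with at most 3 reads in any mutant library. The 6 leaf markers, such as the Rubisco small subunit gene RBCS1A and the Rubisco activase gene RCA, were abundant in all 9 libraries. WT sums ran from 69236 to 70955 TPM, hyp/hyp sums from 54179 to 61296 TPM and hyp/c-1 sums from 56679 to 73216 TPM. Of 4 root markers, RHD6 was at 0 in all libraries and the sum stayed at or below 36.3 TPM, and 3 of 4 flower markers stayed under 1 TPM.

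The 10 proteins sit at the end of the fastest stress signalling in leaves. Receptors at the cell surface, calcium influx and reactive oxygen activate kinase cascades that end in MPK3 and MPK6, and these kinases phosphorylate ERF6, ERF104 and WRKY33. ERF proteins bind the GCC box, and WRKY proteins bind the W box. Many W boxes lie in promoters of WRKY genes themselves. ERF11, ZAT10 and ZAT12 carry EAR repressor motifs, and WRKY18 and WRKY40 act largely as repressors of defence genes, so the group holds brakes as well as activators. Touching or cutting a leaf is itself enough to induce such genes.

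The promoters of 6 of the genes are shown because they differ in the 2 elements that these families themselves bind. Each sequence is the 250 bases before the annotated gene start, read 5′ to 3′ on the gene's strand, from the RefSeq genome TAIR10.1. Capitals mark every match, on either strand, to the W-box core TTGAC or the GCC box GCCGCC.
ERF11, chr1:9956981-9957230, minus strand: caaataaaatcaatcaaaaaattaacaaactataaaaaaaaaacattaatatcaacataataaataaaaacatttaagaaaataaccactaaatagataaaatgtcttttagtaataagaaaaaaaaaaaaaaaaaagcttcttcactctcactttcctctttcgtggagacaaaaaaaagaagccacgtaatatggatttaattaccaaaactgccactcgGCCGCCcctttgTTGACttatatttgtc
ZAT10, chr1:9649324-9649573, minus strand: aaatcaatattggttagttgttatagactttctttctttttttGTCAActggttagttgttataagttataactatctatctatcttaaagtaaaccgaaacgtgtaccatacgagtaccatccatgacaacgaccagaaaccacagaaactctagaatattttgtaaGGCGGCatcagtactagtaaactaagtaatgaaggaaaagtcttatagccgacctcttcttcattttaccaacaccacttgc
WRKY33, chr2:16107985-16108234, plus strand: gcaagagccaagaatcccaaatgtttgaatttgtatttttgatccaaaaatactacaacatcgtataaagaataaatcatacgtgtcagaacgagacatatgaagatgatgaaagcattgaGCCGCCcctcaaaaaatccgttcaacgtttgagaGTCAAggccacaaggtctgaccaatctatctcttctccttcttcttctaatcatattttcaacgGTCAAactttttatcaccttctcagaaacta
ZAT12, chr5:24102564-24102813, plus strand: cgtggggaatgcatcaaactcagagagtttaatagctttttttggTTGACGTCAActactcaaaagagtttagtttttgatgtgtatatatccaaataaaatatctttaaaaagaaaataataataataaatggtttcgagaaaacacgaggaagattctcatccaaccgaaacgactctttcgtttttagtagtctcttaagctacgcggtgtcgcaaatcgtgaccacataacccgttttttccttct
WRKY40, chr1:30383311-30383560, plus strand: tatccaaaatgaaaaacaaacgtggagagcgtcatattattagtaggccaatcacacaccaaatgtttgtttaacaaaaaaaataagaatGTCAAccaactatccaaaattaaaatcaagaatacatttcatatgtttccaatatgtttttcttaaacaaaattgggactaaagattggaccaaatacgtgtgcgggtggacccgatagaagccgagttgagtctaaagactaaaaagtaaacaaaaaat
ERF104, chr5:24767733-24767982, minus strand: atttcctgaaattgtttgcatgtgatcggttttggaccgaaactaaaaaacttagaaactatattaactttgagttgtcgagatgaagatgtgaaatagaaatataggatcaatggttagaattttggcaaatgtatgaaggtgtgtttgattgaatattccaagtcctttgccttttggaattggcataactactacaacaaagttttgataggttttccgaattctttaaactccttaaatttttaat

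The GCC box was present at ERF11, ZAT10 and WRKY33, each time once. It was 28, 82 and 129 bases before the gene start, respectively. In a window of 300 bases that also held 50 bases after the start, 2.57% of 27443 promoters had this box. The same 3 genes also held the W-box core, a pairing found in 1.27% of the promoters. The W-box core was in 7 of the 10 windows, against 50.5% of all promoters. ZAT10, ZAT12 and WRKY33 had at least 2 W-box cores, as had 17.7% of all promoters. In ZAT12 the 2 cores abut on opposite strands, at 205 and 200 bases before the start. Neither element occurred in the windows of ERF6, ERF104 and WRKY18, and one more element, the rapid stress response element CGCGTT, occurred in none of the 10 against 3.4% of all promoters. A match is a description of the letters, not a binding site.

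**Figure D1:**
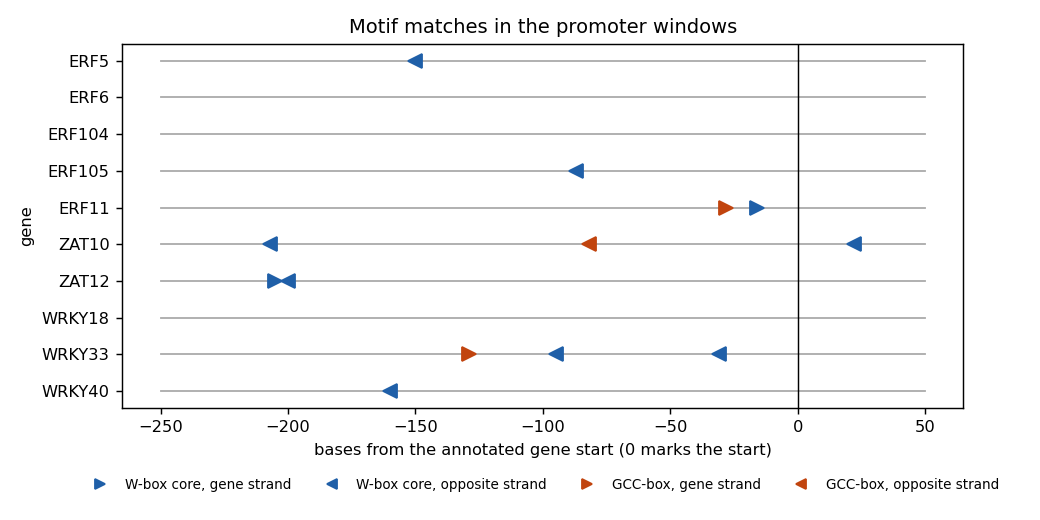
Each line is the window from 250 bases before to 50 bases after the annotated start of 1 of the 10 genes, and the horizontal axis is the distance from that start in bases. Triangles mark W-box cores (blue) and GCC boxes (orange) and point along the strand that holds the letters. Only ERF11, ZAT10 and WRKY33 hold both elements, and ERF6, ERF104 and WRKY18 hold neither.

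ERF5 and ERF6 are close relatives that activate defence genes and also limit leaf growth under osmotic stress. ERF5 (AT5G47230, chromosome 5, 19179881 to 19181182, plus strand) was at 17.8, 20.7 and 35.8 TPM in WT replicates 1 to 3. It was at 31.9, 28.2 and 37.0 TPM in hyp/hyp and at 20.9, 15.1 and 14.98 TPM in hyp/c-1. WT replicate 3 lay among the hyp/hyp libraries, and every hyp/c-1 library lay below every hyp/hyp library. ERF6 (AT4G17490, chromosome 4, 9752824 to 9754161, minus strand) was at 45.6, 29.3 and 63.8 TPM in WT. It was at 56.6, 65.6 and 72.2 TPM in hyp/hyp and at 36.9, 42.0 and 29.6 TPM in hyp/c-1. The pattern was that of ERF5: WT replicate 3 overlapped hyp/hyp, and the mutants did not overlap each other. ERF6 lies 5041 bases from ERF1A, another ERF gene that is described with its family below.

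ERF104, which MPK6 phosphorylates after perception of bacterial flagellin, did not follow its relatives. ERF104 (AT5G61600, chromosome 5, 24766344 to 24767732, minus strand) was at 99.7, 78.5 and 152 TPM in WT, at 135, 135 and 79.3 TPM in hyp/hyp and at 102, 98.7 and 107 TPM in hyp/c-1. Its lowest hyp/hyp library was replicate 3, the library in which the other 8 measurable genes were highest. All 3 genotypes overlapped. ERF105 (AT5G51190, chromosome 5, 20800473 to 20801437, minus strand), a relative linked to cold tolerance, was listed at 0 in all 9 libraries. Its 965 bases lie wholly inside the span of AT5G51180 on the opposite strand. Of 421 genes in the table that lie wholly inside another gene's span, 420 were at 0 in every library (99.8%), against 3422 of 27024 other genes (12.7%). The 0 of ERF105 therefore cannot be read as a level, and 9 of the 10 genes were tested.

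ERF11, a repressor of ethylene and defence genes, had the highest ratio of hyp/hyp to WT means of the 9, 3.12. ERF11 (AT1G28370, chromosome 1, 9955774 to 9956980, minus strand) was at 20.2, 15.4 and 27.8 TPM in WT, at 34.4, 49.9 and 113 TPM in hyp/hyp and at 19.99, 22.4 and 9.24 TPM in hyp/c-1. All hyp/hyp libraries stood above all libraries of the other genotypes, but replicate 3 stood 3.30 times as high as replicate 1. The lowest library, hyp/c-1 replicate 3, still held 163 reads.

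ZAT10 and ZAT12 encode zinc finger proteins of the salt, light and oxidative stress responses. ZAT10 (AT1G27730, also STZ, chromosome 1, 9648021 to 9649323, minus strand) was at 88.1, 69.8 and 154 TPM in WT, at 173, 189 and 240 TPM in hyp/hyp and at 114, 102 and 91.6 TPM in hyp/c-1. The hyp/hyp libraries were the 3 highest of the 9, and the hyp/c-1 libraries fell inside the WT range. ZAT12 (AT5G59820, also RHL41, chromosome 5, 24102814 to 24103794, plus strand) was at 19.5, 18.4 and 29.6 TPM in WT, at 26.6, 35.7 and 49.3 TPM in hyp/hyp and at 19.3, 19.4 and 15.3 TPM in hyp/c-1. Here WT replicate 3 exceeded hyp/hyp replicate 1, so WT and hyp/hyp overlapped.

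WRKY33 is needed for resistance to necrotrophic fungi and for synthesis of the antimicrobial compound camalexin. WRKY33 (AT2G38470, chromosome 2, 16108235 to 16110766, plus strand) was at 110, 85.7 and 166 TPM in WT, at 147, 194 and 324 TPM in hyp/hyp and at 117, 111 and 84.3 TPM in hyp/c-1. WRKY40 (AT1G80840, chromosome 1, 30383561 to 30385499, plus strand) was at 40.5, 30.8 and 56.3 TPM in WT, at 56.0, 90.3 and 200 TPM in hyp/hyp and at 35.6, 33.0 and 15.1 TPM in hyp/c-1. For both genes the highest WT library slightly exceeded the lowest hyp/hyp library, and no hyp/c-1 library reached any hyp/hyp library. WRKY18 (AT4G31800, chromosome 4, 15382777 to 15385100, plus strand), which acts with WRKY40, behaved differently: it was at 144, 104 and 112 TPM in WT, at 80.3, 95.8 and 154 TPM in hyp/hyp and at 79.6, 105 and 26.3 TPM in hyp/c-1. All 3 genotypes overlapped for WRKY18, and hyp/c-1 replicate 3 was the lowest of its 9 libraries. Some reads of these genes are uncertain, since the strand setting of the counting is not stated: WRKY33 shares 272 bases with AT2G08965 and 26 bases with AT2G38480, WRKY40 shares 51 bases with AT1G80850, and 7.09% of the 50-base stretches of WRKY40 also occur elsewhere in the genome.

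**Figure D2:**
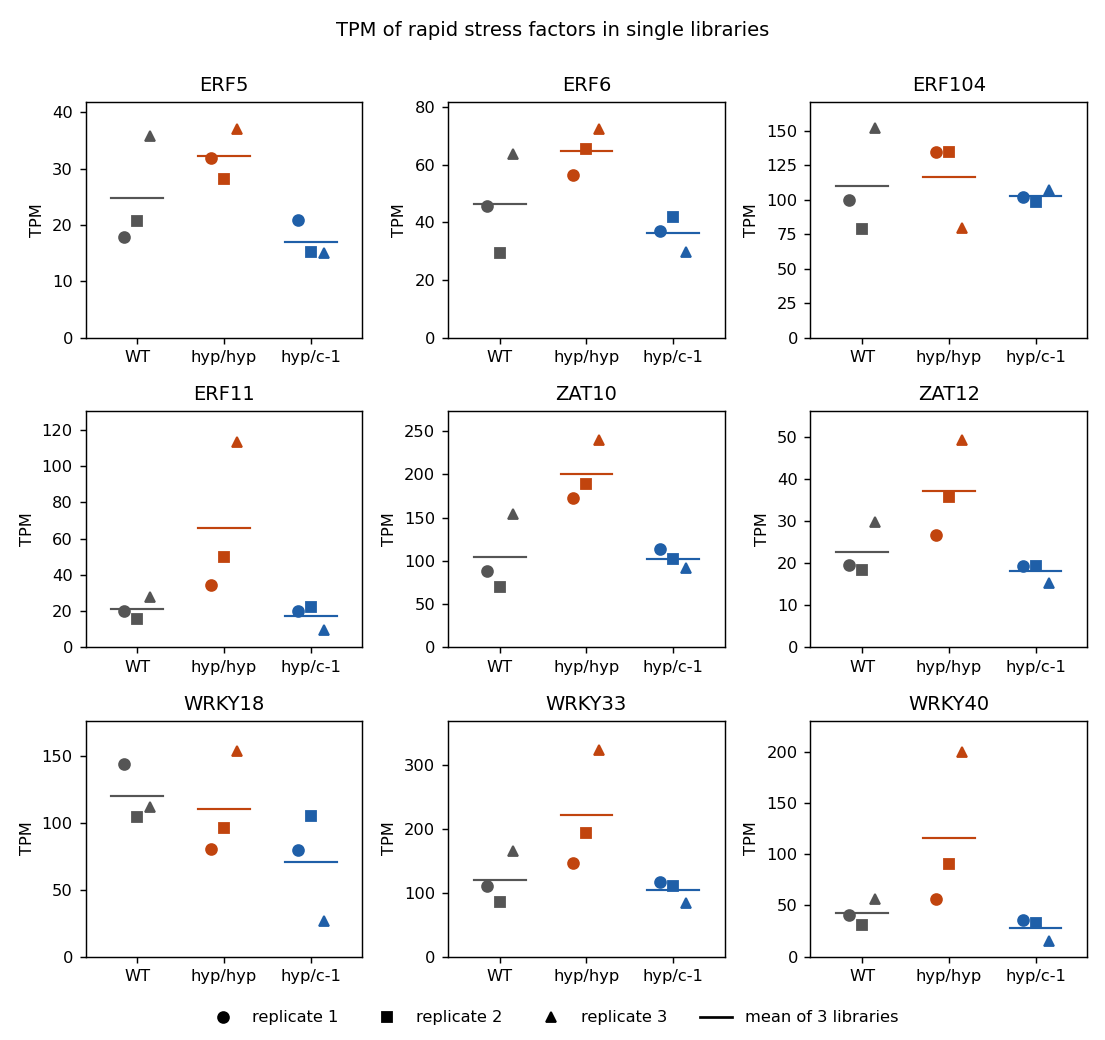
TPM (vertical axis, from 0) of the 9 genes with reads in the 3 libraries of each genotype; marker shape gives the replicate number and the line the mean of 3 libraries. ZAT10 and ERF11 have all hyp/hyp libraries above all others, while ERF104 and WRKY18 overlap in all genotypes.

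In the comparison of hyp/hyp with WT, ERF11 and ZAT10 were higher and the other tested genes were not called. A gene was called where limma's adjusted p was under 0.05 and the difference in log2(TPM + 1) was at least 1. That scale understates changes of low genes, the more so the lower their level. ZAT10 was higher by 1.01 on that scale (SE 0.246, limma adjusted p = 0.0177). ERF11 was higher by 1.45 (SE 0.429, limma adjusted p = 0.0385). These 2 of 9 compare with 2.36% of the 17683 genes tested that were called higher, and 2.87% called in either direction. The same 2 genes were the ones with no overlap between libraries, which held in that direction for 27.5% of all genes. The 2 called genes are among the 3 with a GCC box in the promoters shown above. WRKY33, which also holds the box, was not called. WRKY40, without the box in its window, differed by 1.26, more than ZAT10. A link between the box and the differences was not tested.

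The remaining genes pointed mostly the same way, but none passed correction over all genes. Of the 9 tested, 6 had an unadjusted limma p under 0.05, the 2 called genes among them. So had 6282 of the 17683 genes tested. WRKY40 differed by 1.26 (SE 0.447, limma adjusted p = 0.0726) and WRKY33 by 0.85 (SE 0.296, limma adjusted p = 0.0688). ZAT12 differed by 0.69, ERF6 by 0.54, ERF5 by 0.42, ERF104 by 0.09 and WRKY18 by -0.17, with limma adjusted p-values from 0.057 to 0.82. The values of ERF5 and ERF6 moved with the WT libraries. ERF5 differed by 0.23 without WT replicate 1 and by 0.71 without WT replicate 3 (limma adjusted p = 0.0248). ERF6 differed by 0.25 without WT replicate 2 and by 0.80 without WT replicate 3 (limma adjusted p = 0.0334). Of the 9 differences, 8 were positive and their median was 0.69, against a median of 0.06 over all genes tested. Among all 17683 genes tested, 10431 differences were positive. A change in the number of cells that express a gene and a change in RNA per cell cannot be told apart in whole leaves. ERF11 lost its call with no minimum on expression (limma adjusted p = 0.064), and ZAT10 dropped to 0.95 with median-of-ratios scaling. The calls also leaned on single libraries: without WT replicate 1, WT replicate 2 or hyp/hyp replicate 3, no gene of the 9 was called, whereas without hyp/hyp replicate 1 the called genes were ERF11, WRKY33, WRKY40 and ZAT10 (4 of 9). ZAT10 alone (1 of 9) was called without hyp/hyp replicate 2, and ZAT10 and WRKY33 (2 of 9) without WT replicate 3. Without hyp/c-1 replicate 3 the called genes were ERF11, WRKY40 and ZAT10 (3 of 9). Over all genes the count in this comparison moved as well, from 507 in the main fit to between 395 and 662 with 1 library left out.

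In hyp/c-1 against WT, no gene was called by limma (0 of 9, against 3.2% of all genes called in either direction). None of the 9 had an unadjusted limma p under 0.05, against 5889 of the 17683 genes tested. The limma voom alternative on recovered reads also called 0, with 1 gene at an unadjusted p under 0.05. The largest difference was that of WRKY18, at -0.96 (95% interval -1.93 to 0.00, limma adjusted p = 0.151), and -0.38 without hyp/c-1 replicate 3. WRKY40 differed by -0.64 (interval -1.64 to 0.36) and ZAT10 by 0.06 (interval -0.49 to 0.61). All 9 genes overlapped between these genotypes, whereas 19% of all genes lay wholly higher and 19.3% wholly lower. The median of the 9 was -0.29, against -0.02 over all genes, and it ran from -0.53 without WT replicate 2 to -0.07 without WT replicate 3.

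The difference between the mutants addresses the question of the study most directly. All 9 genes had lower means in hyp/c-1 than in hyp/hyp, and the largest differences were those of WRKY40, ERF11 and WRKY33. Among all 17683 genes tested, 10703 differed in the same direction. None was called by limma (0 of 9, against 0.294% of all genes called lower and 0.52% in either direction). An unadjusted limma p under 0.05 was found for 7 of the 9 and for 4432 of the 17683 genes tested. WRKY40 differed by -1.90 (SE 0.447, limma adjusted p = 0.0526) and ERF11 by -1.78 (SE 0.429, limma adjusted p = 0.0551). ZAT12 differed by -0.97 (SE 0.227) and had the lowest limma adjusted p, 0.0525.

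WRKY33 differed by -1.02, ZAT10 by -0.95, ERF5 by -0.90, ERF6 by -0.83 and WRKY18 by -0.79, with limma adjusted p-values from 0.0652 to 0.277. ERF104 differed by -0.14 (95% interval -0.69 to 0.41, limma adjusted p = 0.75). In 7 of the 9 genes every hyp/c-1 library lay below every hyp/hyp library, a separation found in that direction for 12.1% of all genes; the exceptions were ERF104 and WRKY18. The median was -0.95, against -0.06 over all genes. Voom on recovered reads called WRKY40 (1 of 9, limma adjusted p = 0.0493). Without hyp/hyp replicate 1, limma called ERF11, WRKY33, WRKY40 and ZAT12 (4 of 9), and without hyp/c-1 replicate 1 it called ERF5, ERF11, ZAT10, ZAT12 and WRKY40 (5 of 9). Over all genes the count rose from 92 to 323 and 302 in these fits, so it was not only these factors that gained calls. This comparison shares its hyp/hyp libraries with the comparison of hyp/hyp with WT, so high hyp/hyp libraries enter both with opposite sign, and the comparisons with WT share the WT libraries.

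**Figure D3:**
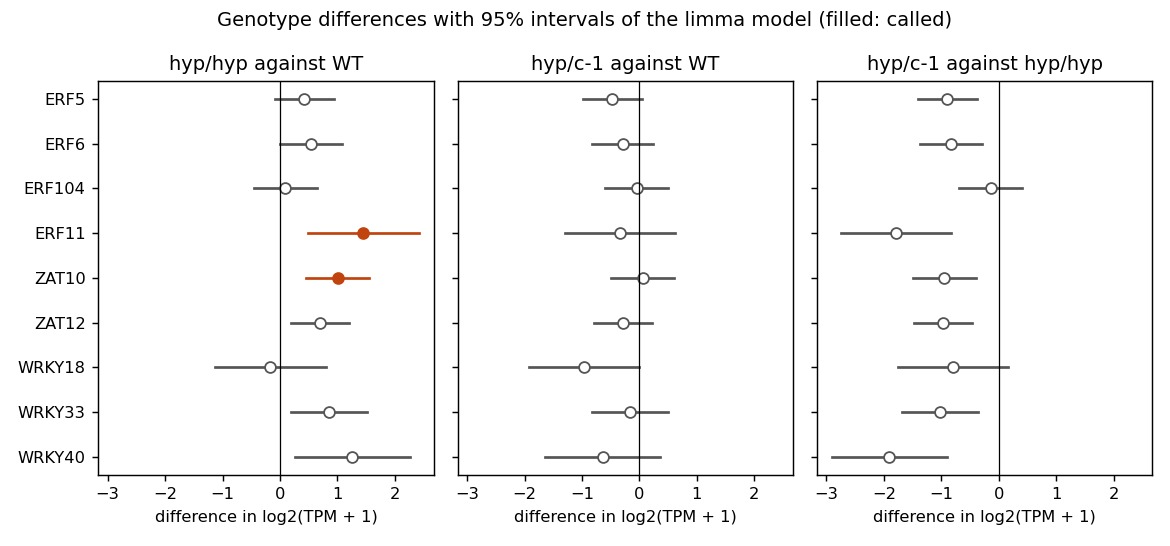
Difference in log2(TPM + 1) (horizontal axis) for the 9 tested genes in the 3 comparisons, with 95% intervals from the limma model; filled points are called. Only ERF11 and ZAT10 against WT in hyp/hyp are called, and all 9 points lie below 0 in hyp/c-1 against hyp/hyp.

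The libraries of 1 genotype differed among themselves more in most of these genes than in the median gene. The median SD of log2(TPM + 1) of the 9 genes was 0.476 for the WT libraries, 0.436 for hyp/hyp and 0.252 for hyp/c-1. Over all genes tested the median SD was 0.0852, 0.124 and 0.163. In hyp/c-1, ERF104 (0.0609) and ZAT10 (0.156) lay below that median. Within hyp/hyp, WRKY40 had an SD of 0.919, reached by 0.413% of all genes, and ERF11 had 0.866, reached by 0.537%. ERF5, ERF6 and ZAT10 were steadier there, at 0.190, 0.175 and 0.244. Among the WT libraries the same genes were the widest of the 9, at 0.510, 0.550 and 0.581. Those SDs were reached by 0.407%, 0.254% and 0.192% of all genes. In hyp/c-1 the widest was WRKY18, with an SD of 1.03, reached by 0.153% of all genes. These SDs describe libraries of 1 label and hold no difference between genotypes.

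The scatter was shared across the genes rather than being private to each. In hyp/hyp, replicate 3 was the highest library for 8 of the 9 genes and replicate 1 the lowest for 7, against 52.6% and 47.6% of all genes. In WT, replicate 3 was the highest for 8 of 9 and replicate 2 the lowest for 8 of 9, against 35.5% and 26.4% of all genes. In hyp/c-1, replicate 3 was the lowest for 8 of 9, against 50.02% of all genes. The median difference of the 9 genes from the WT mean was -0.08, -0.41 and 0.51 in WT replicates 1 to 3. The hyp/hyp libraries stood at 0.35, 0.67 and 1.13, and the hyp/c-1 libraries at -0.17, -0.10 and -0.56. WT replicate 3 thus stood above hyp/hyp replicate 1 in this measure. Of the 9 genes, 2, 6 and 8 exceeded every WT library in hyp/hyp replicates 1, 2 and 3, against 38.0%, 44.7% and 52.5% of all genes.

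**Figure D4:**
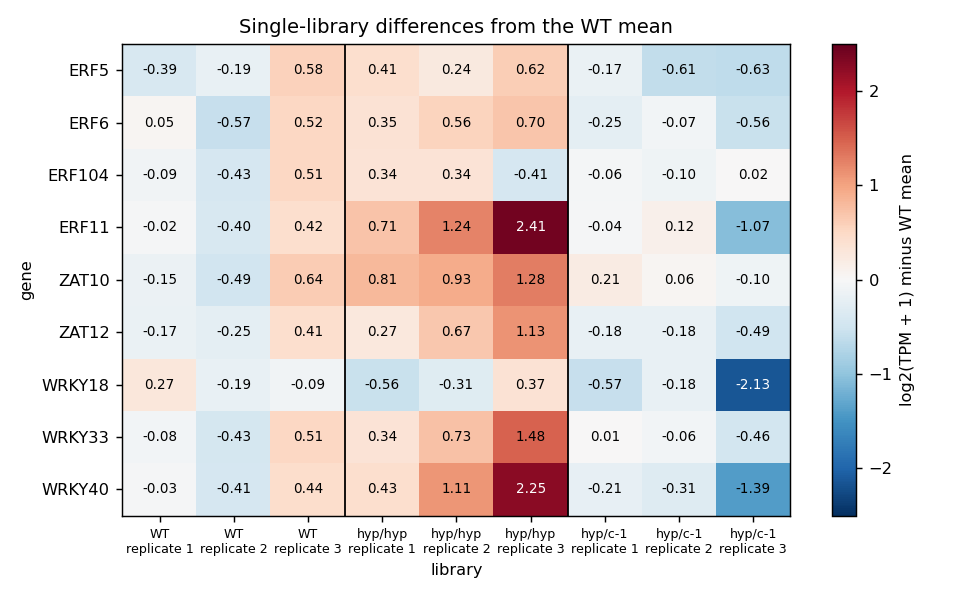
Each cell is the log2(TPM + 1) of a gene (rows) in a library (columns) minus the mean of the WT libraries; red is higher and blue lower. ERF11 and WRKY40 in hyp/hyp replicate 3 reach 2.41 and 2.25, and WRKY18 in hyp/c-1 replicate 3 reaches -2.13.

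Across the 9 libraries, 7 of the genes varied together. ERF5, ERF6, ERF11, ZAT10, ZAT12, WRKY33 and WRKY40 each had a Pearson r of 0.863 to 0.963 with the mean of the other 8 genes, while WRKY18 had 0.50 and ERF104 0.159. With the genotype means subtracted, ERF6, ZAT10, ZAT12 and WRKY33 had r from 0.897 to 0.927, WRKY40 had 0.824, ERF11 0.821, ERF5 0.679, WRKY18 0.464 and ERF104 0.0195. All points share the libraries, and r is given here as a description. The 5 genes outside the group with the closest profile were AT5G46295, RDUF2, ZAT11, MUS81 and AT5G45790, with r from 0.957 to 0.965. RDUF2 encodes a RING ubiquitin ligase, ZAT11 a zinc finger protein and MUS81 a DNA endonuclease. With the genotype means subtracted, the closest were AT2G44578, AT1G16930, AT1G05136, AT3G29000 and AT1G55040, with r from 0.953 to 0.976. AT3G29000 rose and fell with the libraries at a higher level than the others, from 14.5 TPM in WT replicate 2 to 100.2 TPM in hyp/hyp replicate 3.

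Upstream of the 10 factors, the list of 19 MAP kinase, calcium-dependent kinase and CAMTA genes, which relay stress signals, had 1 called gene in hyp/hyp against WT, where 2.36% of all genes were called higher. That gene was AP2C1, a phosphatase that switches off MPK3 and MPK6 and is itself a wound-induced gene, at 1.37 (limma adjusted p = 0.0068). AP2C1 was also the 1 gene of the list that differed between the mutants, at -1.54 (limma adjusted p = 0.0275). Calls between the mutants, here and in the lists that follow, rest on the spread of all 9 libraries: fitted with only those 2 genotypes, 0 of the 17683 genes were called, and with 1 library left out the count over all genes, 92, ran from 1 to 323. MPK3 differed by 0.65 in hyp/hyp against WT (limma adjusted p = 0.0204, under the minimum difference) and MPK6 by 0.08, so neither was called. The median difference of the list was 0.50 for hyp/hyp from WT and -0.41 for hyp/c-1 from hyp/hyp.

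Among other members of the same families, some were called. Over all genes, 2.36% were called higher in hyp/hyp against WT and 0.294% lower in hyp/c-1 against hyp/hyp. In hyp/c-1 against WT, 3.2% were called in either direction. Of 14 other ERF genes tested, 3 rose in hyp/hyp against WT: ERF1A by 1.01, ERF2 by 1.32 and ORA59, an integrator of jasmonate and ethylene signals, by 1.28. Of 8 other C1-2i zinc finger genes tested, ZAT7 and ZAT8 rose in hyp/hyp, by 1.42 and 1.88. The WRKY list left out group III of the family. Of its 21 genes tested, WRKY26 and WRKY48 rose, by 1.01 and 1.24, and the median of that list was only 0.15. Limma adjusted p-values of these 7 genes lay between 0.0034 and 0.0375. Between the mutants, ERF13, ZAT6 and ZAT11 were lower in hyp/c-1, with differences of -1.62, -1.15 and -1.49 and limma adjusted p-values of 0.0474, 0.0398 and 0.0279, and none of those WRKY genes was called. WRKY60, the partner of WRKY18 and WRKY40, differed between the mutants by 0.59, the opposite direction to WRKY18 and WRKY40 (limma adjusted p = 0.0391), under the minimum difference for a call. Of the genes tested in these 3 lists, ZAT8 was the 1 called in hyp/c-1 against WT, at 1.40 (limma adjusted p = 0.0149).

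Genes induced on the same time scale by touch, wounding or elicitors rose in part. Of 26 tested, 5 rose in hyp/hyp: the calmodulin-like genes CML37 by 1.95 and CML38 by 1.55, the deadenylase gene CAF1B by 1.19, MYB51, a regulator of indole glucosinolates, by 1.06, and BAP1, a repressor of cell death, by 1.03. Limma adjusted p-values of the 5 lay between 0.0097 and 0.0366. The share of all genes called higher in hyp/hyp against WT was 2.36%. CML38 was at 34.1, 22.5 and 36.4 TPM in WT, at 55.9, 75.2 and 176 TPM in hyp/hyp and at 28.1, 30.1 and 13.1 TPM in hyp/c-1. Like ERF11 and WRKY40, it was highest in hyp/hyp replicate 3 and lowest in hyp/c-1 replicate 3. Between the mutants 4 of the 26 were lower in hyp/c-1, namely CML38 with a difference of -1.97, BAP1 with -1.33, CAF1A with -1.16 and MYB51 with -1.05 (limma adjusted p from 0.0275 to 0.0428). Among all genes, 0.294% were called lower in hyp/c-1 than in hyp/hyp. The median difference of the 26 was 0.52 for hyp/hyp from WT and -0.78 for hyp/c-1 from hyp/hyp.

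The lists of genes that WRKY33 and ERF proteins are known to act on were short. None of 4 tested camalexin and ACC synthesis genes was called in hyp/hyp against WT, where 2.87% of all genes were called, so a count of 0 says little about these genes. PAD3, the last enzyme of camalexin synthesis, was at 13.9, 16.3 and 19.7 TPM in WT and at 17.8, 23.3 and 58.7 TPM in hyp/hyp, high in replicate 3 alone. CYP71A13, an earlier camalexin enzyme, was lower in hyp/c-1 than in WT, with a difference of -1.28 (limma adjusted p = 0.0262). Its mean was 2.17 TPM in WT and 0.303 TPM in hyp/c-1, a level at which this scale understates the change. Of 3 tested GCC-box defence genes none was called in any comparison. Between the mutants PR4 differed by -0.59 and the chitinase gene CHI-B by 0.21.

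Of 8 tested reactive oxygen genes, 2 rose in both mutants against WT. OXI1, a kinase activated by hydrogen peroxide, rose by 2.73 in hyp/hyp and by 1.86 in hyp/c-1, and UPOX, a mitochondrial stress gene, rose by 1.94 and 2.14. Limma adjusted p-values of both genes were at most 0.0041, and no gene of the 8 was called between the mutants. The shares of all genes called in either direction were 2.87% in hyp/hyp against WT and 3.2% in hyp/c-1 against WT. Between the mutants the share was 0.52%. UPOX ranged from 7.01 to 8.66 TPM across WT, from 30.9 to 35.1 TPM across hyp/hyp and from 36.2 to 39.8 TPM across hyp/c-1 libraries, without the scatter of the rapid factors. Unlike the 9 factors, UPOX and OXI1 were thus called in both mutants.

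Clock genes, which track the hour of sampling, also moved with genotype. The morning gene CCA1 rose by 2.004 in hyp/hyp and by 2.76 in hyp/c-1, and PRR9 rose by 1.55 and 2.27. In hyp/c-1 the evening gene TOC1 fell by 1.04. Limma adjusted p-values of these calls were at most 0.0025. Over all genes, 2.87% were called in hyp/hyp against WT and 3.2% in hyp/c-1 against WT. CCA1 ranged from 0.992 to 2.26 TPM across WT, from 6.29 to 10.9 TPM across hyp/hyp and from 13.3 to 19.96 TPM across hyp/c-1 libraries. Of the 8 tested clock genes, none was called between the mutants. Within hyp/hyp, CCA1 was lowest in replicate 3, where the stress factors were highest. Leaf markers did not pass the call in any comparison, though RBCS1A differed by -0.64 and RBCS2B by -0.56 in hyp/hyp against WT. Between the mutants, RBCS2B and RCA each differed by 0.37, PYK10 and SCR of the root markers by 0.47 and 0.01, and SEP3 of the flower markers by 0.03. The part of the clock and leaf-marker differences in the values of the 9 factors was not tested.

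**Figure D5:**
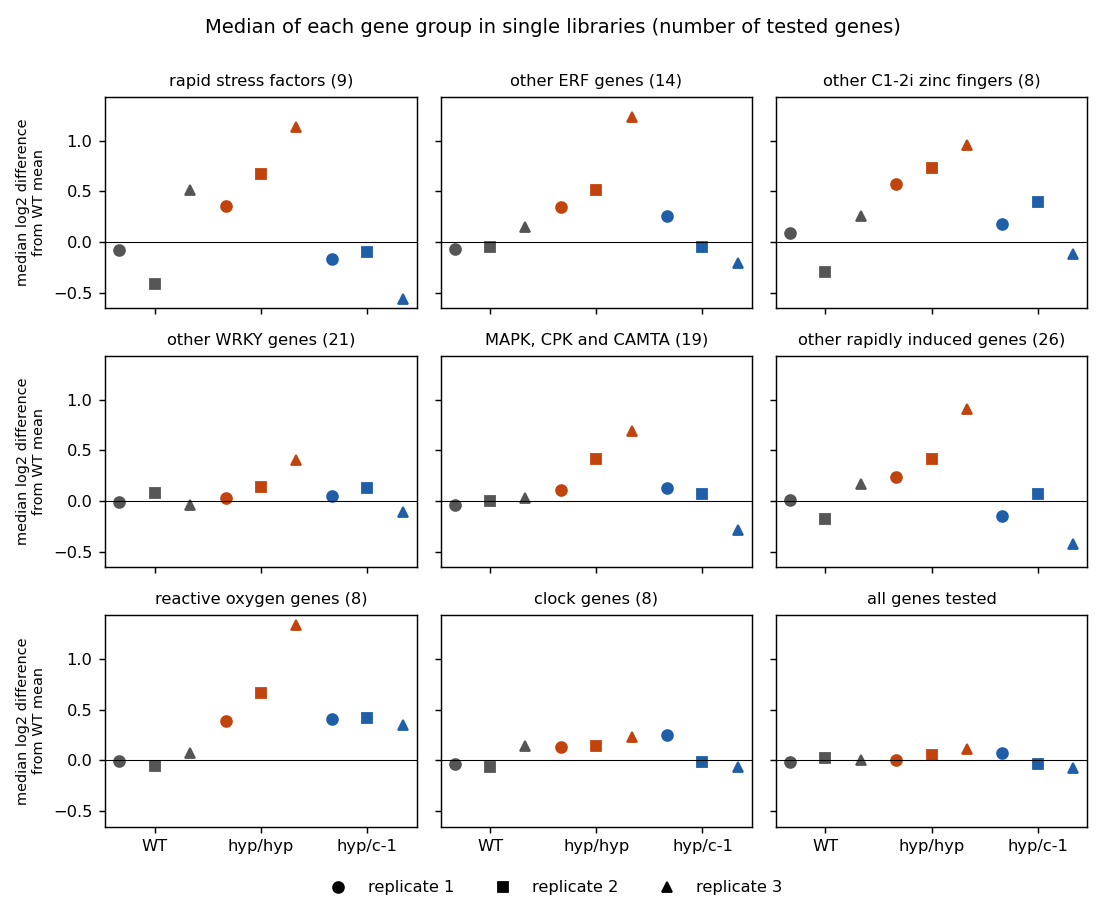
Median difference in log2(TPM + 1) from the WT mean (vertical axis) of the tested genes of 8 groups and of all genes, for each library; marker shape gives the replicate number. The 9 rapid factors, the other ERF genes and the other rapidly induced genes are highest in hyp/hyp replicate 3, at 1.13, 1.24 and 0.91. Also highest there are the reactive oxygen genes (1.34), the other zinc finger genes (0.96), the kinase and CAMTA genes (0.69) and the other WRKY genes (0.41). The clock genes are highest in hyp/c-1 replicate 1, at 0.25. The median of all genes in hyp/hyp replicate 3 is 0.11.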

How the data were processed

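Per the labels, total RNA of leaves was sequenced as NEBNext libraries, 3 for each of 3 genotypes. The authors deposited TPM values of 27655 genes. The submitters' processing notes name fastp 0.20.1, HISAT2 2.1.10, DESeq2 1.26.0 and the build TAIR10, without their roles; the counter and its strand setting are not given in the sources used here. The deposited TPM values times the gene span gave whole reads, within 0.02, for 99.98% of 191811 values above 0.

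Genes averaging 1 TPM or more over the libraries, with ATXR5 and ATXR6 kept in any case, came to 17683 and were compared on log2(TPM + 1) with limma 3.58.1 (R 4.3.3), 1 mean per genotype over all 9 libraries, 6 residual degrees of freedom, a variance trend and Benjamini-Hochberg adjustment over all genes. The fit was tested on simulated data. A call needed an adjusted p under 0.05 and a difference of at least 1. Alternatives were another pseudocount (0.1), other minimums, quantile and median-of-ratios scaling, 2-genotype fits, a replicate block, no trend, voom on recovered reads and leaving out each library. Over all genes tested, same-numbered libraries did not deviate together (correlations -0.272 to 0.10), so the numbers were not treated as pairs. For the 9 factors, replicate 3 was the highest library for 8 in WT and for 8 in hyp/hyp, but the lowest for 8 in hyp/c-1. Promoters came from RefSeq TAIR10.1, and Python 3.11.15, pandas 2.3.3, numpy 2.4.6 and matplotlib 3.10.9 were used. The text names all 10 genes, ATXR5, ATXR6, every called gene of each list or, where a list had none, the 2 with the largest difference between the mutants, and the 5 genes of closest profile; MPK3, MPK6, PAD3 and WRKY60 were added after their values were seen. The members and lists were chosen with earlier results of these data known.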

Additional observations from a re-analysis of the deposited data

How the results depend on the processing

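Counts of called genes moved most. Of the 9 factors, hyp/hyp against WT gave 2 calls. There was 1 call with no minimum on expression and 1 with median-of-ratios scaling, where ZAT10 differed by 0.95, and 0 to 4 when 1 library was left out. Hyp/c-1 against hyp/hyp gave 0 calls, 1 with voom (WRKY40) and 0 to 5 with 1 library left out, and the median difference of the 9 then ran from -1.05 to -0.75. With the replicate block, in which replicate numbers are taken as pairs, hyp/hyp against WT gave 1 call (ERF11 lost, limma adjusted p = 0.0691), and hyp/c-1 against hyp/hyp called 0 genes of the whole table. Over all genes the main counts were 507, 566 and 92 for hyp/hyp against WT, hyp/c-1 against WT and hyp/c-1 against hyp/hyp. With the adjusted p alone they were 3679, 3605 and 502. Hyp/hyp against WT gave 395 to 662 with 1 library left out. Hyp/c-1 against WT gave 366 with a minimum of 5 TPM and 850 with voom. Hyp/c-1 against hyp/hyp gave 34 with no minimum, 0 with only those 2 genotypes fitted and 1 to 323 with 1 library left out. The sign turned only when a library was left out. In hyp/hyp against WT, ERF104 then ran from -0.12 to 0.35 and WRKY18 from -0.44 to 0.029. In hyp/c-1 against WT, ERF104 ran from -0.26 to 0.21, ERF11 from -0.56 to 0.041, ZAT10 from -0.19 to 0.38 and WRKY33 from -0.38 to 0.088. The cause of these shifts was not tested. Each of the 9 factors held at least 163 reads in every library; the effect of depth was not tested.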
